A study of Mus musculus with 6 samples.

Results

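The genes described here are 40 members of the transforming growth factor beta (TGF-beta) and bone morphogenetic protein (BMP) pathways, chosen by name from a list of ligands, binding proteins, antagonists, receptors, Smads, nuclear co-repressors and target genes. All 40 were found among the 54532 genes of the deposited table, and 39 of them passed the filter on low values, a mean level of at least 0.5 FPKM over the 6 tumors. The exception was Nog, which encodes the BMP antagonist noggin. FPKM, the fragment count scaled to gene length and sequencing depth, allows levels to be compared between genes.

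TGF-beta and BMP ligands are secreted dimers that bring type I and type II receptor kinases together. The activated type I receptor phosphorylates receptor-regulated Smads, which join Smad4, enter the nucleus and regulate target genes, while Smad6 and Smad7 oppose the signal. Latent binding proteins hold TGF-beta in the matrix until it is released, and secreted antagonists such as gremlin and noggin keep BMPs from their receptors. In the colon, BMP signalling is high toward the luminal surface and is held low around the stem cells at the crypt base, and loss of TGF-beta receptor or Smad4 function is a recurrent event in colorectal cancer.

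RNA was sequenced from 3 colon tumor samples of Tmem173fl/fl mice and 3 of Tmem173iΔmye mice. Tmem173 encodes STING, an adaptor that signals the presence of cytosolic DNA. Both groups carried the floxed Tmem173 allele, and the Tmem173iΔmye mice also carried the Lyz2 promoter-driven, tamoxifen-inducible Cre (spelled Lzym-Creert2 in the labels), which acts in macrophages, neutrophils and other myeloid cells. All mice received the carcinogen azoxymethane (AOM) and dextran sulfate sodium (DSS), and per the study's methods tamoxifen was given after 3 cycles, once tumors had formed. The question put by this comparison was how loss of myeloid STING after tumor formation alters the tumor. The labels give neither age nor sex. The RNA came from whole tumors, in which fewer cells of a type and less RNA per cell cannot be told apart.

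Total counts lay between 15329810 and 16533732 per tumor. Tmem173 itself did not separate the groups, with 1748, 2911 and 1705 counts in Tmem173fl/fl tumors and 2291, 2245 and 1953 in Tmem173iΔmye tumors, so these data hold no independent check of the deletion. Epithelial markers were abundant in every tumor (Epcam between 788 and 1142 FPKM), as was the Wnt target Axin2 (between 50.9 and 85.5 FPKM). Y-linked transcripts were found in 1 Tmem173fl/fl tumor (replicate 1) and in 2 Tmem173iΔmye tumors (replicates 1 and 2), and were at 2 counts or fewer in the rest. The groups therefore differed in their make-up by sex. Values with a Y-linked covariate are given for Smad4 and for the members with an unadjusted p under 0.05 without that covariate.

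Levels of the members spanned a wide range. The highest mean levels over the 6 tumors were those of Id1 (198 FPKM) and Id3 (88.4 FPKM), inhibitors of basic helix-loop-helix factors and direct targets of BMP signalling. Next stood Smad4 (46.3 FPKM), Thbs1 (41.9 FPKM) and Tgfbi (41.0 FPKM), whose ranges over tumors overlapped one another. Id1 exceeded Id3 without overlap, the lowest Id1 value being 155 FPKM and the highest Id3 value 99.9 FPKM. At the other end were the co-receptor gene Tgfbr3 (0.728 FPKM), Tgfb2 (0.529 FPKM) and Nog (0.404 FPKM). The ratio of the highest to the lowest tumor had a median of 1.73 over the 39 tested members and ran from 1.18 for Smad1 to 5.95 for Ltbp2. It was under 1.5 for 9 of the 39 and over 2 for 7, and for Nog, which was not tested, it was 2.55.

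**Figure D1:**
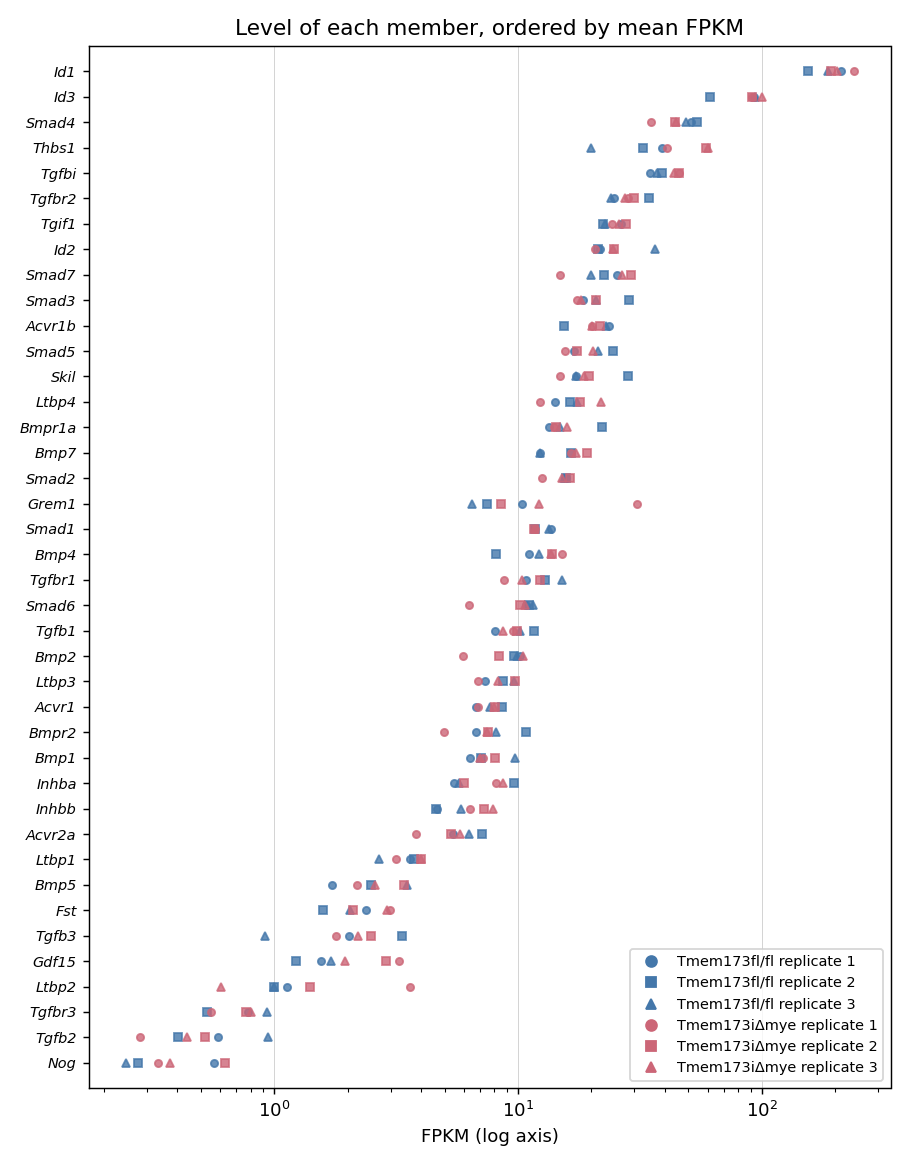
Level of each of the 40 members in each tumor, in FPKM on a log axis, ordered by the mean over 6 tumors, with colors for genotype and symbols for replicate. Id1 and Id3 lie apart at the top, and Nog, Tgfb2 and Tgfbr3 lie at the bottom with means under 1 FPKM.

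No member passed the test after adjustment over all 16426 genes tested (edgeR, quasi-likelihood test, adjusted by the Benjamini-Hochberg method), and no gene of the whole table did, the smallest adjusted p being 0.742. DESeq2 called no member either, and called 28 of the 16426 genes. At an unadjusted p under 0.05 by edgeR, 7 of the 39 tested members stood out (17.9%), against 6.14% of all genes tested. All 7 were higher in Tmem173iΔmye tumors, where 3.23% of all genes were called in that direction. They were Thbs1, Inhbb, Gdf15, Tgfbi, Bmp7, Grem1 and Bmp4. The members were chosen with earlier results of these data known, so their share beside that of all genes is a description and not a test. With a Y-linked covariate 2 of the 7 remained under 0.05, Inhbb (unadjusted p = 0.0155) and Thbs1 (unadjusted p = 0.0267) by edgeR, where 3.37% of all genes were under that limit. The rest were over it by edgeR, with unadjusted p of 0.0519 for Bmp7, 0.0568 for Tgfbi, 0.0788 for Gdf15, 0.0904 for Grem1 and 0.0917 for Bmp4. By DESeq2, 7 members also had an unadjusted p under 0.05, against 6.65% of all genes, 6 of them higher (3.57% of all genes) and 1 lower (3.08%). Groups did not overlap for 8 of the 39 members (20.5%), against 12.5% of all genes tested. Of these, 6 were higher (6.03% of all genes) and 2 were lower (6.47%) in Tmem173iΔmye tumors. The median log2 fold change of the members, Tmem173iΔmye over Tmem173fl/fl as for every fold change here, was -0.0021, beside -0.0042 for all genes tested.

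**Figure D2:**
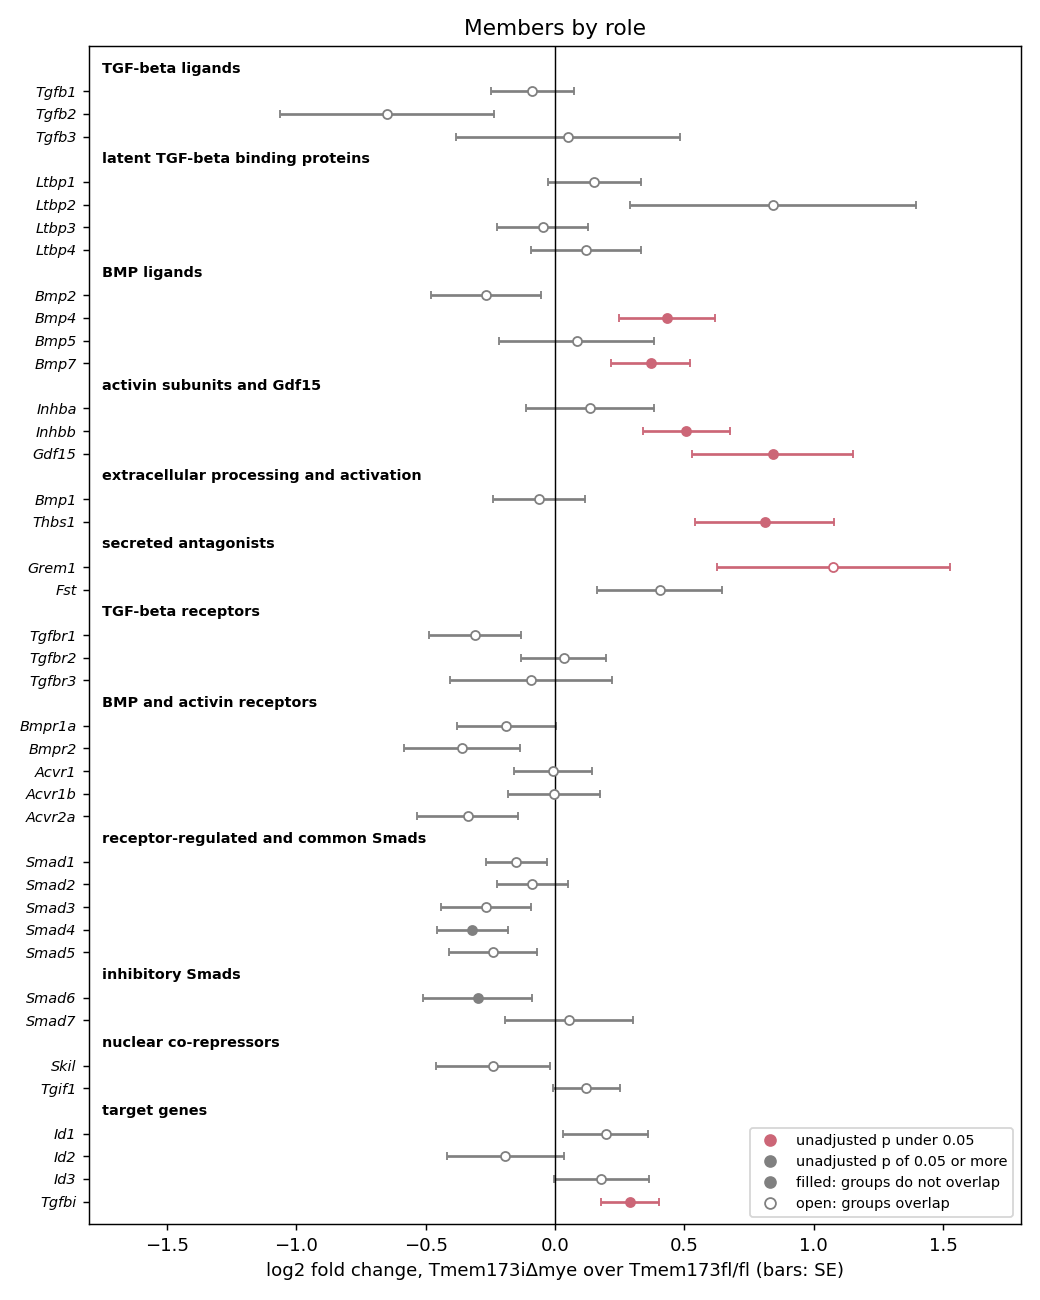
Log2 fold change (Tmem173iΔmye over Tmem173fl/fl) of the 39 tested members by role, with bars of 1 SE. The 7 members with an unadjusted p under 0.05 (colored) all lie to the right of 0, and the 5 receptor-regulated and common Smads all lie to the left.

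The 3 TGF-beta ligand genes did not differ beyond their spread. Tgfb1, the main TGF-beta of immune and stromal cells, stood at 8.04, 11.7 and 10.2 FPKM in Tmem173fl/fl replicates 1 to 3 and at 9.54, 9.91 and 8.68 FPKM in Tmem173iΔmye replicates 1 to 3. All 3 Tmem173iΔmye values lay inside the Tmem173fl/fl range (log2 fold change -0.09, SE 0.16). Tgfb3 was at 2.02, 3.34 and 0.917 FPKM against 1.79, 2.49 and 2.21 FPKM, with both extremes in Tmem173fl/fl tumors (log2 fold change 0.05, SE 0.43). Tgfb2 was low in all, at 0.586, 0.404 and 0.947 FPKM against 0.283, 0.518 and 0.437 FPKM, and its groups overlapped (log2 fold change -0.65, SE 0.41). Tgfb1 made up 75.5%, 75.7% and 84.5% of the summed FPKM of the 3 ligands in Tmem173fl/fl tumors and 82.2%, 76.7% and 76.6% in Tmem173iΔmye tumors. The mean share was 78.6% ± 5.14 (SD, n = 3) against 78.5% ± 3.19 (SD, n = 3).

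The latent TGF-beta binding proteins anchor the inactive complex in the matrix. Ltbp4 was the most abundant of the 4, at 14.2, 16.3 and 17.5 FPKM in Tmem173fl/fl tumors and 12.3, 17.998 and 21.9 FPKM in Tmem173iΔmye tumors, which overlapped. Ltbp2 had the widest spread of all members, from 0.603 to 3.600 FPKM, and both extremes were Tmem173iΔmye tumors (replicates 3 and 1). None of the 4 had an unadjusted p under 0.05 by edgeR, and their log2 fold changes ran from -0.05 to 0.84.

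Thbs1 had the lowest unadjusted p of the members. It encodes thrombospondin-1, a matrix glycoprotein that can release active TGF-beta from its latent complex. The gene (ENSMUSG00000040152, GRCm38 chr2:118111876-118127133, plus strand) was at 38.8, 32.5 and 19.9 FPKM in Tmem173fl/fl tumors and at 40.8, 59.2 and 60.3 FPKM in Tmem173iΔmye tumors. The groups did not overlap, but the highest Tmem173fl/fl tumor and the lowest Tmem173iΔmye tumor, both replicate 1, were close. The means were 30.4 ± 9.63 and 53.4 ± 11.0 FPKM (SD, n = 3 each), a 1.76-fold difference. On the log2 scale the difference was 0.81 (SE 0.27), with an unadjusted p of 0.0171 and an adjusted p of 0.742 by edgeR. With a Y-linked covariate the log2 difference was 0.78. A long non-coding gene on the opposite strand, Gm29233, overlaps 208 bases of Thbs1 exons. The library kit does not mark strand, so reads there cannot be told apart. The same limit holds for other members with opposite-strand overlaps, among them Bmp5 (1878 bases), Ltbp2 (764), Acvr2a (446), Fst (115) and Bmp4 (89). Bmp1, which encodes a metalloprotease that cleaves procollagens and the BMP antagonist chordin, ranged from 6.34 to 9.76 FPKM (log2 fold change -0.06, SE 0.18).

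Among the BMP ligands, Bmp4 and Bmp7 were higher in Tmem173iΔmye tumors while Bmp2 and Bmp5 overlapped between groups. Bmp4 (ENSMUSG00000021835, chr14:46383520-46390669, minus strand), a mesenchymal BMP of the intestine, was at 11.1, 8.12 and 12.2 FPKM in Tmem173fl/fl and 15.1, 13.7 and 13.6 FPKM in Tmem173iΔmye tumors. Every Tmem173iΔmye value was above every Tmem173fl/fl value, and the log2 difference was 0.43 (SE 0.19, unadjusted p = 0.0487 and adjusted p = 0.742 by edgeR). Bmp7 (ENSMUSG00000008999, chr2:172868012-172940321, minus strand), the most abundant BMP ligand here, was at 12.2, 16.5 and 12.3 FPKM against 16.5, 19.1 and 17.4 FPKM. Its groups abutted without overlap at 16.5 FPKM, and the log2 difference was 0.37 (SE 0.15, unadjusted p = 0.0422 and adjusted p = 0.742 by edgeR). Bmp2, a BMP made largely by differentiated epithelium, was at 10.2, 9.61 and 9.93 FPKM in Tmem173fl/fl tumors and 5.95, 8.33 and 10.5 FPKM in Tmem173iΔmye tumors. The spread of Bmp2 was wider in Tmem173iΔmye tumors (SD 2.26 against 0.302 FPKM), and its log2 fold change was -0.27 (SE 0.21). Bmp5 was the least abundant of the 4, at 1.73, 2.49 and 3.50 FPKM against 2.19, 3.40 and 2.60 FPKM (log2 fold change 0.08, SE 0.30). Summed over the 4 ligands, the level was 36.6 ± 1.30 FPKM in Tmem173fl/fl and 42.8 ± 2.63 FPKM in Tmem173iΔmye tumors (SD, n = 3 each).

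All 3 members of the activin and GDF group were higher in Tmem173iΔmye tumors on average, and 2 of the 3 without overlap. Inhbb (ENSMUSG00000037035, chr1:119415465-119422248, minus strand), which encodes the activin beta B subunit, was at 4.66, 4.60 and 5.86 FPKM in Tmem173fl/fl and 6.36, 7.29 and 7.89 FPKM in Tmem173iΔmye tumors. That is a log2 difference of 0.51 (SE 0.17, unadjusted p = 0.0176 and adjusted p = 0.742 by edgeR). Gdf15 (ENSMUSG00000038508, chr8:70629393-70632456, minus strand), a stress-induced divergent member of the family, was low throughout, at 1.56, 1.23 and 1.71 FPKM against 3.26, 2.87 and 1.95 FPKM. Tmem173iΔmye replicate 3 lay just above the Tmem173fl/fl range, and the log2 difference was 0.84 (SE 0.31, unadjusted p = 0.0276 and adjusted p = 0.742 by edgeR). Inhba, the activin beta A subunit, overlapped fully, at 5.47, 9.61 and 5.73 FPKM against 8.16, 6.02 and 8.67 FPKM. The log2 ratio of Inhba to Inhbb was 0.23, 1.06 and -0.032 in Tmem173fl/fl tumors and 0.36, -0.28 and 0.14 in Tmem173iΔmye tumors, also overlapping.

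Grem1 had the highest log2 fold change of the members, and 1 tumor set its size. Grem1 (ENSMUSG00000074934, chr2:113746164-113758646, minus strand) encodes gremlin 1, a BMP antagonist of the stroma around the crypt base. It was at 10.4, 7.43 and 6.48 FPKM in Tmem173fl/fl tumors and 30.7, 8.48 and 12.2 FPKM in Tmem173iΔmye tumors. Tmem173iΔmye replicate 1 stood far above every other tumor, and replicate 2 fell within the Tmem173fl/fl range. The log2 fold change of 1.08 (SE 0.45, unadjusted p = 0.0451 and adjusted p = 0.742 by edgeR) made Grem1 the 1 member past both limits the study used, a log2 change of 1 and an unadjusted p of 0.05, which 1.26% of all genes passed in that direction. Without Tmem173iΔmye replicate 1 it was 0.35 (unadjusted p = 0.217 by edgeR). Fst, encoding the activin-binding follistatin, was at 2.39, 1.59 and 2.05 FPKM against 2.98, 2.11 and 2.91 FPKM (log2 fold change 0.40, SE 0.24). Nog was under 1 FPKM in every tumor, at 0.567, 0.276 and 0.246 FPKM against 0.334, 0.627 and 0.373 FPKM.

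Set against the BMP ligands, the antagonists made up a different balance in 1 tumor. The log2 ratio of summed Grem1, Nog and Fst to summed Bmp2, Bmp4, Bmp5 and Bmp7, in FPKM, was -1.40, -1.98 and -2.11 in Tmem173fl/fl tumors and -0.23, -1.99 and -1.51 in Tmem173iΔmye tumors. The groups overlapped, and the means were -1.83 ± 0.38 and -1.24 ± 0.91 (SD, n = 3 each). Tmem173iΔmye replicate 1 was also the tumor with the highest summed neutrophil markers, 484 FPKM over 6 genes against 48.5 to 153 FPKM in the other tumors. Most of that sum came from S100a8 (169 FPKM) and S100a9 (263 FPKM), and Mmp9 (5.43 FPKM) alone of the 6 was not highest there. Fibroblast markers in the same tumor (271.6 FPKM summed over 10 genes) lay inside the range of the others, 251 to 388 FPKM. The part of either in the Grem1 value was not tested.

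**Figure D3:**
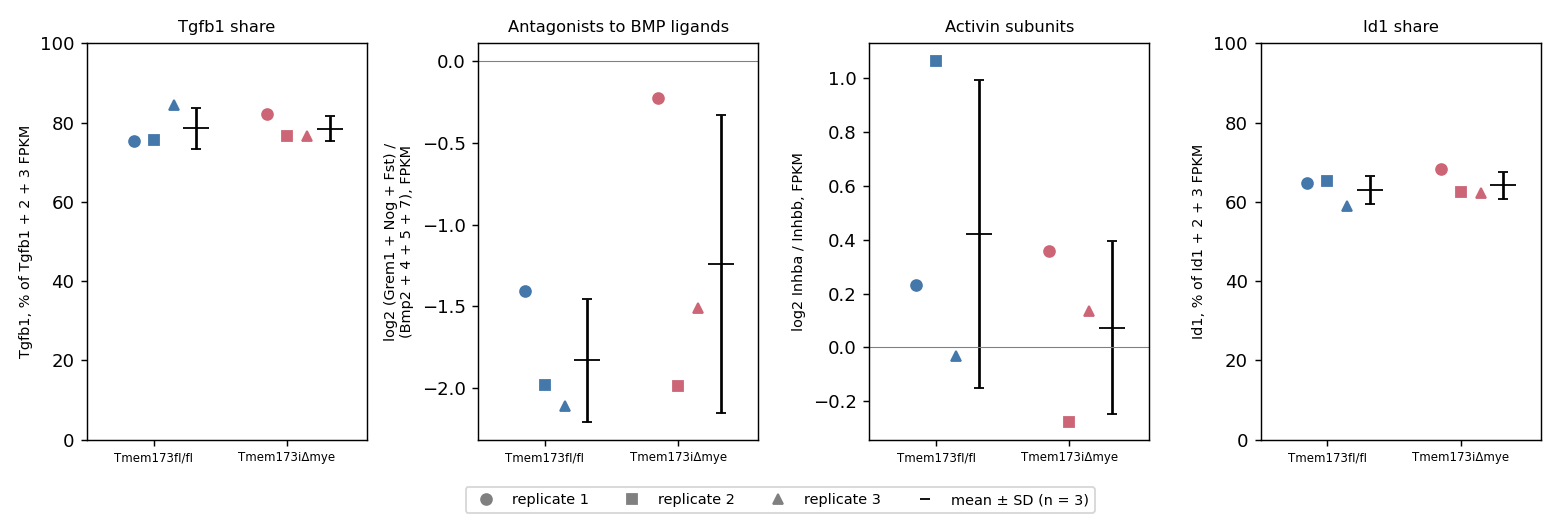
Composition of 4 groups of members in each tumor, with the mean and SD (n = 3) at the right of each group: the Tgfb1 share, the log2 ratio of antagonists to BMP ligands, the log2 ratio of Inhba to Inhbb and the Id1 share, all from FPKM. All 4 overlap between genotypes, and Tmem173iΔmye replicate 1 lies alone at -0.23 in the antagonist panel.

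**Figure D4:**
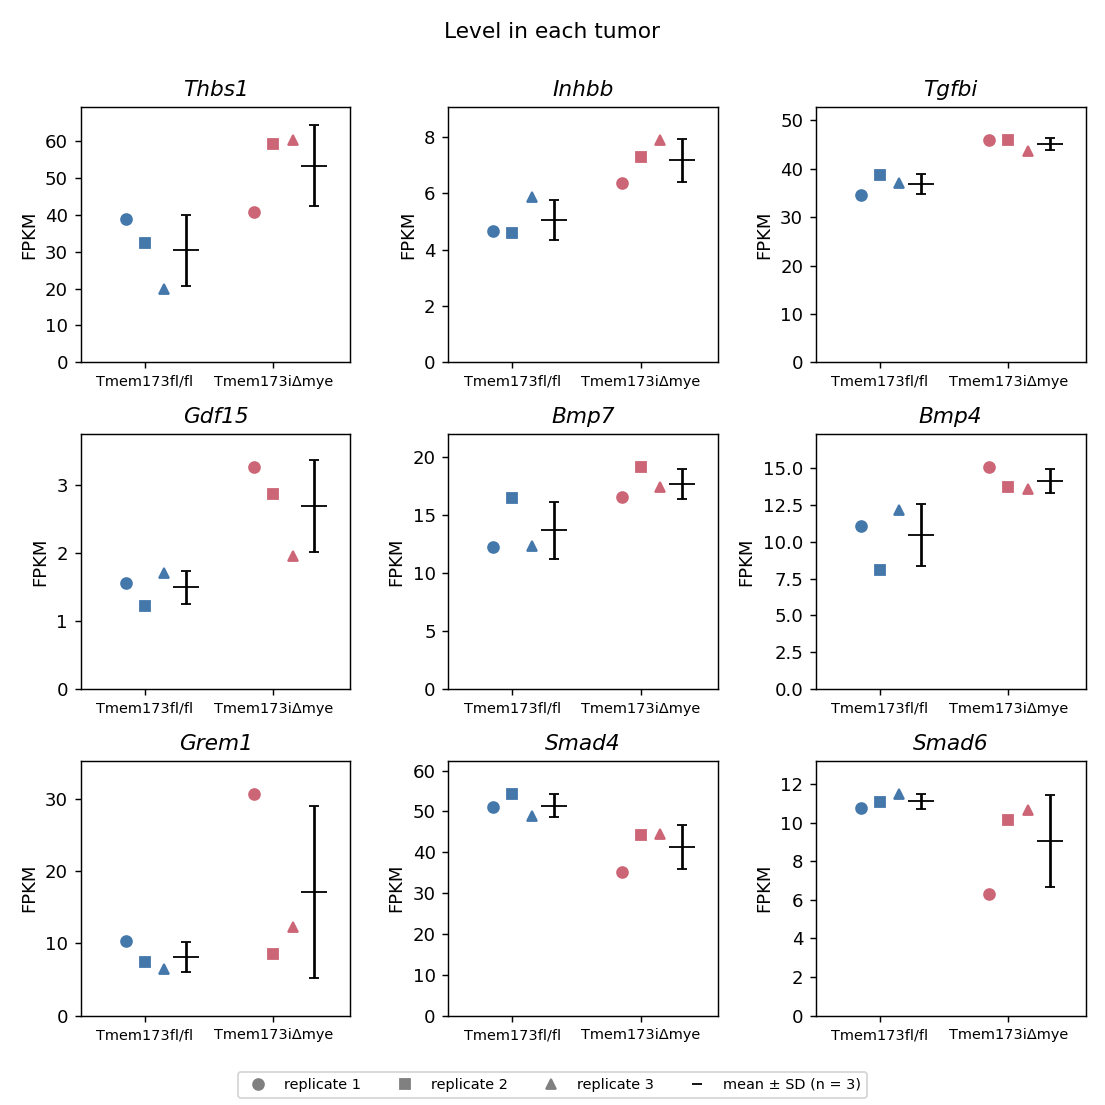
FPKM of 9 members in each tumor, one panel a gene, with symbols for replicates and the mean and SD (n = 3) at the right of each group. Grem1 overlaps between genotypes, the other 6 members with an unadjusted p under 0.05 lie higher in Tmem173iΔmye tumors without overlap, and Smad4 and Smad6 lie lower without overlap.

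Receptor genes overlapped between the groups throughout. Tgfbr2, the type II receptor that binds TGF-beta first, was at 24.8, 34.5 and 24.0 FPKM in Tmem173fl/fl and 28.1, 29.8 and 27.3 FPKM in Tmem173iΔmye tumors (log2 fold change 0.03, SE 0.16). Acvr1b, a type I activin receptor, was at 23.5, 15.4 and 23.0 FPKM against 20.2, 21.7 and 20.1 FPKM. Both had overlapping groups, and the Tmem173iΔmye values lay inside the Tmem173fl/fl range. The 3 TGF-beta receptor genes had log2 fold changes from -0.31 (Tgfbr1, the type I receptor) to 0.03, and the 5 BMP and activin receptor genes from -0.36 (Bmpr2, the BMP type II receptor) to -0.0021 (Acvr1b). No receptor gene had an unadjusted p under 0.05 by edgeR with no covariate.

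Among the intracellular Smads, Smad4 was lower in Tmem173iΔmye tumors, just outside the unadjusted limit. Smad4 (ENSMUSG00000024515, chromosome 18), the common partner of both branches, was the most abundant Smad, at 51.0, 54.3 and 48.9 FPKM in Tmem173fl/fl and 35.1, 44.2 and 44.5 FPKM in Tmem173iΔmye tumors. Its groups did not overlap, and the log2 fold change was -0.32 (SE 0.14, unadjusted p = 0.0503 and adjusted p = 0.742 by edgeR). By DESeq2 the unadjusted p was 0.0418. With a Y-linked covariate the log2 fold change of Smad4 was -0.29 (unadjusted p = 0.0949 by edgeR). Without Tmem173iΔmye replicate 1 it was -0.22 (unadjusted p = 0.130 by edgeR), and no fit with 1 tumor left out was under 0.05. Smad6 (ENSMUSG00000036867, chr9:63953076-64022059, minus strand), the inhibitory Smad of the BMP branch, was at 10.7, 11.1 and 11.5 FPKM against 6.31, 10.2 and 10.6 FPKM. Smad6 groups also did not overlap, but Tmem173iΔmye replicate 1 stood well below the others and the log2 fold change of -0.30 (SE 0.21) had an unadjusted p of 0.197 by edgeR. Smad7, the inhibitory Smad of both branches, was at 25.5, 22.4 and 19.9 FPKM against 14.8, 29.0 and 26.6 FPKM, overlapping. Smad1, Smad2, Smad3 and Smad5, the receptor-regulated Smads, had log2 fold changes between -0.27 and -0.09 and overlapping groups.

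Together, the secreted members and the receptors and Smads lay on different sides of 0, a division made after the values were seen and so given without a test. Of the 18 secreted members tested, 13 had a log2 fold change above 0 (median 0.14), and of the 15 receptors and Smads, 13 had one below 0 (median -0.19). Across all genes tested 49.4% were above 0. Tmem173iΔmye replicate 1 held the lowest value of 9 of the 15 receptors and Smads, and without it 9 of the 15 had a log2 fold change below 0 (median -0.15). Fold changes also varied with gene length. In 5 equal groups of all genes tested, from the shortest to the longest, the median log2 fold change was 0.050, 0.11, 0.037, -0.025 and -0.13. Of the 39 members, 17 lay in the group next to the longest and 8 in the longest. In an added fit, chosen after seeing the data, that removed this trend within each library, the median of the receptors and Smads was -0.14, and the unadjusted p of Smad4 was 0.0294 by edgeR (log2 fold change -0.36). Under that fit Bmp4 (unadjusted p = 0.0542) and Bmp7 (unadjusted p = 0.0580) were over the limit by edgeR.

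**Figure D5:**
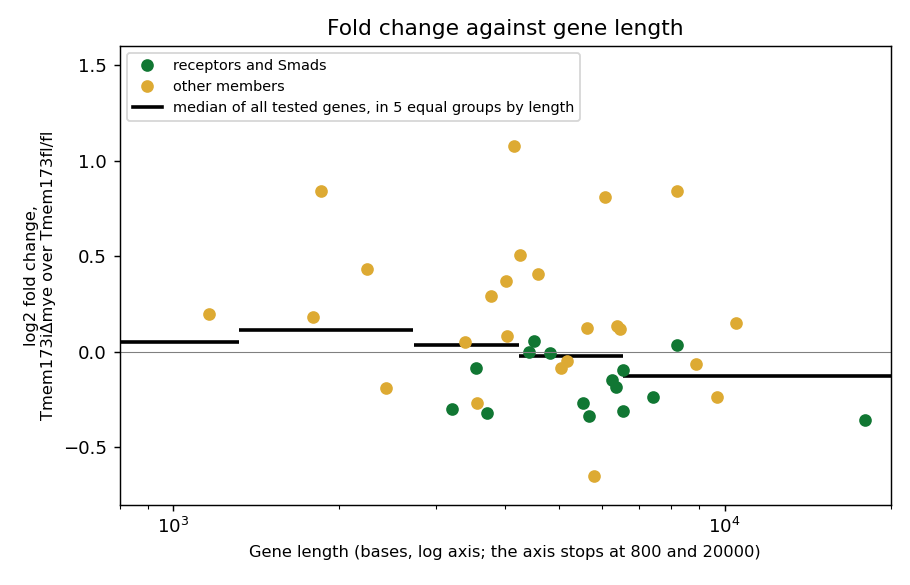
Log2 fold change of the 39 tested members against gene length on a log axis, with receptors and Smads in green, other members in yellow, and black lines for the median of all genes tested in 5 equal groups by length. The lines run from 0.050 for the shortest genes to -0.13 for the longest, and 13 of the 15 receptors and Smads lie below 0.

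Nuclear members and target genes were led by Tgfbi. Tgfbi (ENSMUSG00000035493, chr13:56609523-56639562, plus strand) encodes an extracellular matrix protein first identified as TGF-beta-induced. It was at 34.6, 38.8 and 37.1 FPKM in Tmem173fl/fl and 45.9, 45.9 and 43.6 FPKM in Tmem173iΔmye tumors. The difference was small but steady, with means of 36.9 ± 2.09 and 45.1 ± 1.32 FPKM (SD, n = 3 each) and no overlap. On the log2 scale it was 0.29 (SE 0.11, unadjusted p = 0.0329 and adjusted p = 0.742 by edgeR). Id1 was at 212, 155 and 187 FPKM against 239, 193 and 204 FPKM, and Id3 at 93.0, 61.2 and 94.1 FPKM against 90.8, 91.3 and 99.9 FPKM. Both Id genes overlapped, with log2 fold changes of 0.20 (SE 0.16) and 0.18 (SE 0.18). Id2 was at 21.7, 21.3 and 36.6 FPKM against 20.6, 24.8 and 24.4 FPKM, with replicate 3 of the Tmem173fl/fl group alone at the high end. Id1 made up 64.9%, 65.2% and 58.9% of the summed Id1, Id2 and Id3 FPKM in Tmem173fl/fl tumors and 68.2%, 62.4% and 62.2% in Tmem173iΔmye tumors. Of the co-repressors that restrain Smad-driven transcription, Tgif1 was the more abundant, at 26.6, 22.3 and 22.7 FPKM against 24.2, 27.7 and 26.0 FPKM (log2 fold change 0.12, SE 0.13). Skil ranged from 14.8 to 28.1 FPKM, and the groups overlapped for both.

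Promoter sequences are shown for the members higher in Tmem173iΔmye tumors at an unadjusted p under 0.05 that have an entry in the RefSeq table (GRCm38.p6), so that the motifs known for Smads can be read in them. Entries were found for 27 members. Each line is the stretch of up to 250 bases before the RefSeq start site, 5′ to 3′ along the gene, and the part of Tgfbi that lies in its own annotated exon was left out. Capitals mark CAGAC, the Smad-binding element, with its reverse complement GTCTG, and GGCGCC, a palindrome bound by BMP Smads.
Bmp4 (chr14:46390670-46390919, minus strand): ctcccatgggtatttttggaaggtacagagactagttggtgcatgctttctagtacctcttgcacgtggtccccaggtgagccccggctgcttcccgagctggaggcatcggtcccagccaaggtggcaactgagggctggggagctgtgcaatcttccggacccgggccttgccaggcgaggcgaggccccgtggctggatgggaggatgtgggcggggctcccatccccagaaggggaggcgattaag
Inhbb (chr1:119422249-119422498, minus strand): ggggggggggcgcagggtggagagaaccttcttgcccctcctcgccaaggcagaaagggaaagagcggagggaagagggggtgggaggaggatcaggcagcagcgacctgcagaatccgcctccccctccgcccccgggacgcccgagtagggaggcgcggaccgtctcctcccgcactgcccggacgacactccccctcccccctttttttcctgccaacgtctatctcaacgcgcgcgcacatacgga
Gdf15 (chr8:70632457-70632706, minus strand): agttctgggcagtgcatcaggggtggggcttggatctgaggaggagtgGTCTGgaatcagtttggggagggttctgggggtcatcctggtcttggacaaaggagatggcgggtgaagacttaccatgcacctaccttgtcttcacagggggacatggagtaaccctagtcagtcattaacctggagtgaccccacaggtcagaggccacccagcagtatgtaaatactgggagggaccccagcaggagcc
Grem1 (chr2:113758649-113758898, minus strand): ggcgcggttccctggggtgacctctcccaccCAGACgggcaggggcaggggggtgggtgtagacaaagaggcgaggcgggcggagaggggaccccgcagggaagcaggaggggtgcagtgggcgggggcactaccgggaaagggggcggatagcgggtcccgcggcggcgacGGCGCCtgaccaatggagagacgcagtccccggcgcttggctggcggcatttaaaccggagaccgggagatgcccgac
Tgfbi (chr13:56609336-56609522, plus strand): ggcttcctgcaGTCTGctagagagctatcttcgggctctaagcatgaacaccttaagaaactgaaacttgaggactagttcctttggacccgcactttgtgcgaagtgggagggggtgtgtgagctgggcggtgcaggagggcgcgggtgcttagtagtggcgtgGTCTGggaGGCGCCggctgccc

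Read on both strands, CAGAC was in 12 of the 27 member promoters and in 42.2% of all 32851 promoters of the same length. GGCGCC was in 6 of the 27, and in 9.6% of all promoters. For Bmpr1a, Bmpr2 and Id2, which are among these 6, the RefSeq start site lay 795, 879 and 1048 bases inside the deposited gene. Their windows also overlapped an exon of the gene. Each member was read in a single window, but the share of all promoters counts every listed start site. GC content was not matched, so the shares are not compared like for like. The longer palindrome GTCTAGAC was in none of the 27, and in 0.2% of all promoters. In the sequences above, Grem1 and Tgfbi hold both CAGAC (or GTCTG) and GGCGCC, Gdf15 holds GTCTG, and Bmp4 and Inhbb hold neither. No motif shown overlaps another. These are matches of letters alone, and no binding was measured here.

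Other genes of the pathways were listed apart from the members, and 56 of 76 passed the filter. At an unadjusted p under 0.05 by edgeR there were 4 of the 56, beside 6.14% of all genes tested. Of the 4 genes, 3 were higher in Tmem173iΔmye tumors, Hey1 and Tgm2 among them (3.23% of all genes), and 1, Bambi, was lower (2.9% of all genes). Bambi, a pseudoreceptor that blocks TGF-beta signalling, was at 5.28, 8.39 and 14.3 FPKM in Tmem173fl/fl and 2.94, 4.91 and 4.21 FPKM in Tmem173iΔmye tumors. It did not overlap between groups (log2 fold change -1.22, SE 0.36, unadjusted p = 0.0105 by edgeR). Hey1, a Notch and BMP target encoding a transcriptional repressor, was at 1.49, 1.88 and 1.44 FPKM against 2.22, 2.89 and 3.20 FPKM, without overlap. Tgm2, the transglutaminase that crosslinks matrix proteins, was at 35.8, 52.4 and 24.7 FPKM against 85.5, 51.6 and 56.6 FPKM, overlapping at replicate 2 of each group. Over the 56 genes, 25 had a log2 fold change above 0. The ligand genes Gdf1, Mstn, Nodal and Lefty2 were at 0 counts in every tumor.

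Markers of the cells that can make these ligands and antagonists were read in the same tumors. Among 10 fibroblast markers, 9 leaned toward Tmem173iΔmye tumors, the median log2 fold change being 0.26, and the summed level was between 251 and 324 FPKM in Tmem173fl/fl and between 271.6 and 388 FPKM in Tmem173iΔmye tumors. Dpt alone of the fibroblast markers had an unadjusted p under 0.05 by edgeR, at 6.16, 4.57 and 5.88 FPKM against 13.4, 11.9 and 9.95 FPKM (log2 fold change 1.08, unadjusted p = 0.000812 and adjusted p = 0.742 by edgeR). By DESeq2 the adjusted p of Dpt was 0.00695. Of 8 smooth muscle markers 2 were above 0, with a median of -0.51, and Des alone was under that limit (log2 fold change -1.01, unadjusted p = 0.0342 by edgeR). Of 8 endothelial markers 5 were above 0, with a median of 0.22. All 10 epithelial markers were above 0, with a median of 0.096, as were 5 of 8 macrophage markers (median 0.12). The endothelial marker Pecam1 (log2 fold change 0.36, unadjusted p = 0.0481 by edgeR) and the epithelial marker Vil1 (0.35, unadjusted p = 0.0495 by edgeR) were also under 0.05. None of these markers was at 0 in every tumor. Their part in the values of the members was not tested.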

How the data were processed

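Polyadenylated RNA of 6 colon tumors was sequenced with a kit that does not mark strand. The authors deposited 1 table holding raw counts per gene and FPKM, and columns of their own comparison (group means, log2 fold change, p and adjusted p), which were not used. The submitters' processing notes name CASAVA 1.8, fastp, HISAT2 2.0.5, featureCounts 1.5.0-p3, DESeq2 1.20.0 and GRCm38. The deposited FPKM values equalled the counts divided by gene length and scaled library size to within a relative difference of 5e-07.

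The test was edgeR's quasi-likelihood test (edgeR 4.0.16, R 4.3.3) on the deposited counts, with TMM scaling (factors 0.961 to 1.05) and no covariate. Genes under a mean FPKM of 0.5 were left out, and p-values were adjusted by the Benjamini-Hochberg method over the 16426 that remained. SE was taken as the size of the log2 difference over the root of its F statistic. Groups were said not to overlap when the CPM values of one group all exceeded those of the other. The methods describe 3 randomly selected samples per group and do not say that each tumor came from its own mouse, so p-values measure the spread between these samples. DESeq2 1.42.0 and limma 3.58.1 on log2(FPKM + 1) and log2(FPKM + 0.1), other scalings and filters, a replicate block, a Y-linked covariate and leaving out each tumor were alternatives, and the gene-length offset was added after seeing the data. The scripts were tested on simulated counts. Counting depth limits precision most for the genes at low FPKM.

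Members named with all 6 values were those with an unadjusted p under 0.05 or with groups that did not overlap, the members of the 4 ratios and the most abundant member of each role. The members and lists were chosen with earlier results of these data known. Promoters came from RefSeq (GRCm38.p6). The values of 1 other pathway gene are not reported here.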

Additional observations from a re-analysis of the deposited data

How the results depend on the processing

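No member passed an adjusted p of 0.05 under any alternative run. The count of members at an unadjusted p under 0.05, 7 as reported, was 2 with the Y-linked covariate, and leaving out 1 tumor at a time gave 1 to 4. It was 2 without Tmem173fl/fl replicate 1 (10.1% of all genes tested were under that limit), 4 without Tmem173fl/fl replicate 2 (6.5%), 4 without Tmem173fl/fl replicate 3 (3.26%), 3 without Tmem173iΔmye replicate 1 (3.5%), 1 without Tmem173iΔmye replicate 2 (4.83%) and 3 without Tmem173iΔmye replicate 3 (5.63%). These fits have fewer samples. All 7 members kept their direction in them. Leaving out Tmem173iΔmye replicate 1 took the log2 fold change of Grem1 from 1.08 to 0.35. The count past both limits, 1 as reported, was 0 with limma on either pseudocount, with the replicate block and with the Y-linked covariate, and 0 to 3 with a tumor left out. The share of all genes past both limits is given only for the reported fit (1.26%, higher in Tmem173iΔmye tumors). The counts in the other fits therefore cannot be read against all genes. The count of members whose groups did not overlap, 8 as reported, was 5 with library totals alone (12.2% of all genes tested) and 9 to 18 with a tumor left out, where 18.7% to 31.2% of all genes tested did not overlap. The count of other pathway genes at an unadjusted p under 0.05, 4 as reported, was 2 to 7 with a tumor left out. In the same fits 3.26% to 10.1% of all genes tested were under that limit.

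Whether the replicate numbers pair the samples cannot be settled from so few correlations. Same-numbered tumors correlated at 0.315, 0.0085 and 0.154 in their deviations from the group means. Differently numbered tumors correlated at -0.374 to 0.223. With the replicate block, 6 members had an unadjusted p under 0.05 by edgeR (9.16% of all genes did). Thbs1, Inhbb, Bmp7, Grem1 and Bmp4 were higher in Tmem173iΔmye tumors, and the receptor gene Bmpr2 was lower (log2 fold change -0.36, unadjusted p = 0.0339 by edgeR). Gdf15 and Tgfbi were just over the limit. Tmem173fl/fl replicate 2 correlated best with Tmem173iΔmye replicate 3 (0.223).

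Members with a log2 fold change near 0 turned sign. Acvr1b (-0.0021 as reported) was 0.011 with no filter, 0.023 and 0.025 by limma with a pseudocount of 1 and 0.1, and 0.022 with the replicate block, and ranged from -0.18 to 0.11 with a tumor left out. Tgfb3 was -0.017 with the gene-length offset. With a tumor left out, the log2 fold change ranged from -0.22 to 0.036 for Tgfb1, -0.30 to 0.55 for Tgfb3, -0.080 to 0.32 for Ltbp4, -0.13 to 0.37 for Bmp5, -0.0041 to 0.44 for Inhba, -0.057 to 0.21 for Tgfbr2, -0.13 to 0.30 for Smad7, -0.33 to 0.12 for Id2 and -0.0012 to 0.29 for Id3. The cause of these changes was not tested.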

Other observations

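Markers of lymphocytes were low or uneven in these tumors. All 6 T cell markers had a log2 fold change above 0 (median 0.74), with summed levels of 5.51 to 8.80 FPKM in Tmem173fl/fl and 7.77 to 14.7 FPKM in Tmem173iΔmye tumors, and Trac alone had an unadjusted p under 0.05 by edgeR. Jchain, which joins secreted antibody chains, was at 73.6, 27.8 and 34.9 FPKM against 149.8, 53.5 and 90.1 FPKM. The summed level of 6 neutrophil markers, mostly that of S100a8 and S100a9, was highest in Tmem173iΔmye replicate 1 (484 FPKM). That tumor also held the lowest value of 15 of the 39 tested members (38.5%), against 23.5% of all genes tested, and Tmem173fl/fl replicate 2 held the highest value of 12 (30.8%, against 26.6%).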
